A study of Mus musculus with 6 samples.

Results

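The nuclear genes of the respiratory chain were taken from the expression table by symbol. They are all genes whose symbol starts with Ndufa, Ndufb, Ndufc, Ndufs, Ndufv, Uqcr, Cox4 to Cox8 or Atp5, together with Sdha, Sdhb, Sdhc, Sdhd, Cyc1 and Cycs. The rule found 92 of the 17739 genes in the table: 38 named for complex I, 7 assembly factors of complex I, 4 of complex II, 9 of complex III, cytochrome c, 16 named for complex IV and 17 named for the ATP synthase. The names do not always match the complex: Ndufa4 is now known as a subunit of complex IV, Cox7a2l as a factor that joins complexes III and IV, and Atp5s and Atp5sl are not structural subunits of the ATP synthase.

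RNA came from mammary epithelial organoids, which are pieces of epithelium that collagenase I and Pronase released from mammary glands 2 and 3 and pulse centrifugation enriched. All mice were FVB on lactation day 1, and there was 1 library per mouse from total RNA. The groups were wild type (3 mice) and Nmi-/- (3 mice), which the series title calls a conditional knockout of Nmi. The promoter that drives deletion, the mice's ages and whether controls carry a floxed allele or Cre are not stated in the labels. Interferon induces Nmi, whose protein interacts with Myc and with STAT factors, and the series asks how its loss leads to excess growth of the mammary epithelium.

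The respiratory chain sits in the inner mitochondrial membrane. Complexes I and II pass electrons from NADH and succinate to coenzyme Q, complex III passes them on to cytochrome c, and complex IV passes them to oxygen; complexes I, III and IV pump protons, and the ATP synthase uses the gradient to make ATP. Most subunits are encoded in the nucleus, and the remainder, all core subunits, in mitochondrial DNA. The lactating mammary epithelium makes milk protein, fat and lactose, which costs much ATP. The 13 subunits encoded in mitochondrial DNA were not analysed here.

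The nuclear genes are scattered over the genome, and the factors NRF1, the ETS family (which includes NRF2/GABP), YY1 and CREB are known to bind many of their promoters. Letters of their motifs were searched on both strands in the RefSeq promoter windows (GRCm38.p6, 250 bases before to 50 after the start), which exist for 73 of the 92 genes. GCGCANGCGC, the NRF1 motif, was found in 19 of 73 windows (26.0%), against 12.3% of the windows of all 7531 tested genes that have one. AAGATGGC, the YY1 motif, was found in 12.3% of the chain genes' windows against 5.75%, and TGACGTCA, the CREB motif, in 6.85% against 3.80%. CCGGAAG, an ETS motif, was found in 23.3% against 21.3%, and GGGCGG, the SP1 motif, in 43.8% against 72.4%. A match is a description of these letters and not of a bound site, and no test was made of these shares. The stretches below show such letters in the genes of a highly expressed subunit (Cox6a1), of the complex I subunit with the highest fold change (Ndufb4) and of a complex II subunit whose groups did not overlap (Sdhd). Capitals mark the NRF1, SP1 or ETS letters on either strand; each stretch runs 5′ to 3′ on the gene's strand and ends before any annotated exon. The reference is not the FVB strain.
Cox6a1, chr5:115348982-115349101, minus strand, NRF1 and SP1 letters: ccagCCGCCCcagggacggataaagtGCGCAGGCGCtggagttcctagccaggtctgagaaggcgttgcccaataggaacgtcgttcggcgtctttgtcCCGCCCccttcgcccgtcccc
Ndufb4, chr16:37654454-37654573, minus strand, NRF1 and SP1 letters: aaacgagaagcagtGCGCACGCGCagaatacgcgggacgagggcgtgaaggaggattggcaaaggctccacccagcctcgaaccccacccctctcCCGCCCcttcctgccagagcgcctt
Sdhd, chr9:50603850-50603909, minus strand, ETS letters: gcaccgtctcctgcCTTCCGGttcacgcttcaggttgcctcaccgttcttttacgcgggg
The Sdhd stretch is 60 bases long because Timm8b lies just before its 5′ side. Timm8b is a gene for a mitochondrial import chaperone that is read from the opposite strand. The Sdhd window also holds NRF1 and SP1 letters, which lie outside the stretch shown. Tested genes with the NRF1 letters had a median log2 fold change of 0.03 (17 genes) and those without had 0.0013 (51 genes). With the CREB letters the median was -0.16 (5 genes: Cycs, Ndufa10, Ndufa11, Ndufb2 and Uqcrfs1) and without them 0.02 (63 genes); these medians were not tested.

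Values are FPKM, fragments scaled to gene length and to the library total. Levels of different genes can be set side by side only roughly, since some entries may be failed estimates and reads may be shared between similar genes. Nmi, the targeted gene, stood at 4.60, 2.82 and 2.32 FPKM in wild-type replicates 1, 2 and 3 and at 0.188, 0.547 and 0.564 FPKM in knockout replicates 1, 2 and 3. The groups did not overlap, and the log2 fold change (knockout minus wild type, of FPKM + 1) was -1.54 (SE 0.23), with an adjusted p of 0.372 in limma. The libraries' FPKM sums ran from 379478 to 509453; read counts and depth are unknown. The milk protein genes (20 listed, led by Csn2 at 88363 against 114974 FPKM) made up 48.3%, 61.5% and 71.2% of the sum in the wild types and 67.5%, 63.8% and 76.9% in the knockouts. Wild-type replicate 1 and knockout replicate 3 stood at opposite ends of the first principal component, which held 73.8% of the variance. The 6 luminal and alveolar markers, led by Krt18 and Krt8, summed to 5195, 3440 and 2570 FPKM in the wild types and 2575, 3306 and 1041 FPKM in the knockouts. Keratins made up most of this sum. Elf5 was the single marker of the list with a fold change above 0, at 168 ± 7.77 against 195 ± 48.7 FPKM. Fewer cells of a type and less RNA per cell cannot be told apart in these bulk samples. Gapdh was listed between 0 and 0.0769 FPKM, so a low entry may be a failed estimate.

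The summed level of the respiratory chain genes differed between the genotypes by less than the spread between mice. Their FPKM summed to 3220, 2685 and 2648 in the wild types and to 3202, 2559 and 2733 in the knockouts. Means were 2851 ± 320 (SD, n = 3) and 2831 ± 332 (SD, n = 3), a ratio of 0.993. Of the 92 genes, 82 reached 1 FPKM in at least 3 libraries and were tested, and 81 of these reached it in every library. None passed an adjusted p of 0.05 in limma (Benjamini-Hochberg over all 9767 genes tested), where the background is 0.0% of all genes; adjusted p ran from 0.768 to 0.999. No member had an unadjusted p under 0.05 in either direction, against 0.184% of all genes higher and 1.15% lower in the knockout. The smallest unadjusted p of a member was 0.0687, for Cox7c.

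How precisely each fold change was measured is given by the 95% intervals, which hold for single genes and are not adjusted over all genes. The median interval reached 0.57 on the log2 scale to either side of the estimate. For 81 of the 82 tested members the interval lay within 1 of no difference, and the limits over all of them ran from -1.18 to 0.90. Smaller differences were not detectable with 3 mice a group, and larger ones could also miss the adjusted threshold. Nmi, at a log2 fold change of -1.54, had a limma adjusted p of 0.372, and no tested gene passed. The absence of members past that threshold thus says little about single members.

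**Figure D1:**
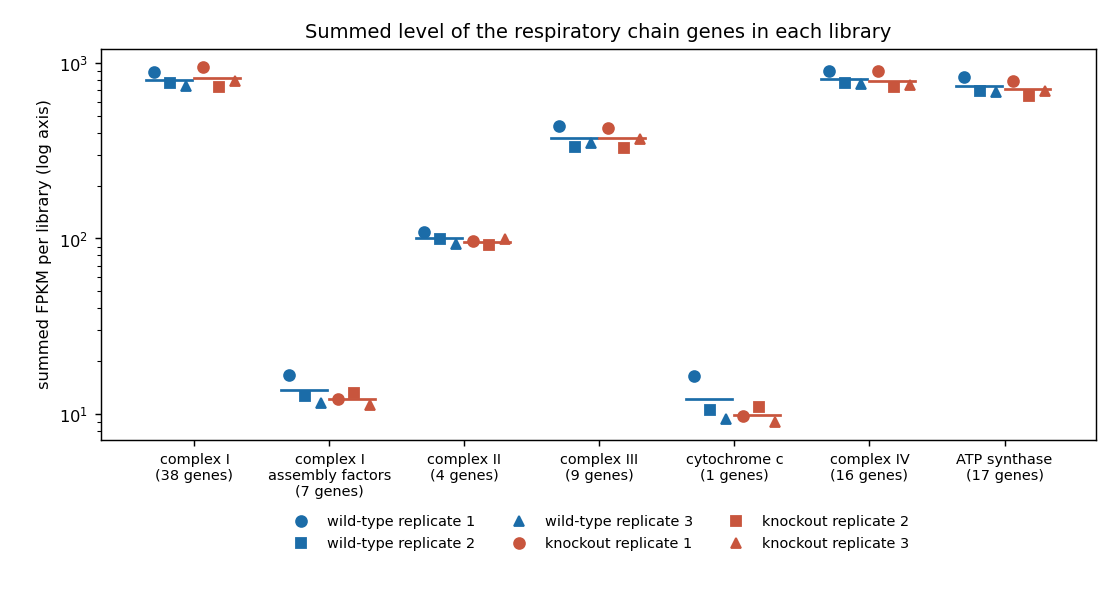
Summed FPKM (log axis) of the genes of each complex in each library. Blue symbols are the 3 wild-type libraries, red symbols the 3 knockout libraries, symbol shape marks the replicate and lines mark the group means; in every complex the groups overlap.

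The larger complexes kept similar shares of the total in all libraries. Complex I genes held between 27.8% and 29.8% of the summed level of all members in the 6 libraries, complex IV genes between 27.6% and 28.6%, ATP synthase genes between 24.8% and 25.9%, complex III genes between 12.3% and 13.7% and complex II genes between 3.01% and 3.71%. The complex I assembly factors ranged wider relative to their own share, from 0.379% to 0.519%, as did Cycs, from 0.303% to 0.512%. In all, 6 genes averaged at least 100 FPKM over all libraries: Cox4i1, Atp5b, Cox6a1, Cox8a, Atp5a1 and Atp5d. Another 60 averaged 10 to 100 FPKM, 16 averaged 1 to 10 FPKM and 10 averaged under 1 FPKM. The ratio of the highest to the lowest of the 6 libraries had a median of 1.51 over the tested members, against 2.09 over all tested genes. It reached 2 in 4 of 82 members (4.88%) and in 55.3% of all tested genes.

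Complex I oxidises NADH. Its 38 genes summed to 896, 769 and 745 FPKM in the wild types and to 955, 732 and 792 FPKM in the knockouts (804 ± 80.9 against 827 ± 116, SD, n = 3). The median log2 fold change of its 37 tested genes was 0.02, and single genes ran from -0.25 to 0.29. Ndufb9, an accessory subunit and the most abundant, stood at 91.3, 78.9 and 71.4 FPKM in the wild types and 96.2, 77.9 and 83.0 FPKM in the knockouts. Ndufc2, the next, averaged 58.9 ± 6.58 FPKM in the wild types and 59.4 ± 5.94 FPKM in the knockouts. Both overlapped between the genotypes.

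The core subunits of complex I carry its flavin and iron-sulfur clusters. Ndufv1, which holds the NADH site, stood at 18.0, 16.4 and 16.1 FPKM in the wild types and 18.5, 14.9 and 16.7 FPKM in the knockouts. Ndufv2 averaged 16.7 ± 1.30 against 17.7 ± 1.99 FPKM, and Ndufs1, the largest core subunit, 7.49 ± 0.420 against 7.49 ± 0.603 FPKM. Ndufs7 averaged 14.7 ± 1.18 against 16.5 ± 3.09 FPKM and Ndufs8 14.9 ± 0.908 against 14.6 ± 2.79 FPKM (wild type first, SD, n = 3). Ndufs3 was nearly constant in the wild types at 6.85, 6.78 and 6.91 FPKM, and stood at 6.48, 4.85 and 6.91 FPKM in the knockouts. The mean levels of these core subunits all lay below the 80.5 and 85.7 FPKM of Ndufb9.

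Among the accessory subunits, Ndufa12 was the single tested chain gene whose knockouts all lay above the wild types. It stood at 12.7, 9.95 and 10.8 FPKM in the wild types and 14.2, 12.9 and 13.2 FPKM in the knockouts. The log2 fold change was 0.25 (SE 0.23, limma adjusted p = 0.768), and the smallest p an exact permutation test allows for 3 against 3 mice is 0.1. Of all tested genes, 0.778% had such non-overlapping higher groups, against 1 of 82 members. Ndufa12 (chromosome 10, 94198720 to 94221443, plus strand, GRCm38) has a near-identical pseudogene, Gm15920, so its reads may be shared. Ndufb4, with the highest fold change, stood at 13.6, 12.6 and 8.81 FPKM in the wild types and 16.1, 12.5 and 14.5 FPKM in the knockouts (0.29, SE 0.25). Its low value in wild-type replicate 3 stands apart from the others, and the groups overlap. At the other end, Ndufs4, needed for a late step of assembly, averaged 5.45 ± 0.725 against 4.47 ± 1.12 FPKM (-0.25, SE 0.23) and Ndufa6 53.5 ± 4.10 against 46.7 ± 8.64 FPKM (-0.20, SE 0.27).

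The 7 assembly factors of complex I, which help build it and are no part of it, were low in all libraries. They summed to 16.7, 12.6 and 11.5 FPKM in the wild types and 12.1, 13.2 and 11.2 FPKM in the knockouts, with wild-type replicate 1 above the other 5. The median log2 fold change of the 5 tested was -0.10. Ndufaf1 averaged 3.43 ± 0.55 against 2.78 ± 0.512 FPKM and Ndufaf4 2.36 ± 0.734 against 1.87 ± 0.439 FPKM. Ndufaf2, the most abundant, averaged 3.76 ± 0.922 against 3.40 ± 0.201 FPKM, and Ndufaf3 1.78 ± 0.235 against 1.95 ± 0.480 FPKM. Ndufaf5 and Ndufaf6 averaged under 1 FPKM in both genotypes.

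Complex II, succinate dehydrogenase, also works in the citrate cycle and is built from nuclear genes alone. Its sum was 109, 99.5 and 92.6 FPKM in the wild types and 96.2, 91.4 and 99.0 FPKM in the knockouts. Sdha, the flavoprotein, stood at 28.9, 27.2 and 28.2 FPKM and 27.8, 25.5 and 32.8 FPKM, and Sdhb, the iron-sulfur subunit, averaged 26.9 ± 3.67 against 26.7 ± 6.18 FPKM. The membrane anchor Sdhc averaged 26.0 ± 5.0 against 23.2 ± 5.12 FPKM. Sdhd, the other anchor (chromosome 9, 50596357 to 50603812, minus strand), stood at 18.9, 19.7 and 19.5 FPKM in the wild types and 17.9, 17.4 and 15.3 FPKM in the knockouts. The groups did not overlap, but the log2 fold change of -0.19 (SE 0.23, limma adjusted p = 0.774) was smaller than its error and close to the median of all tested genes, -0.21. After the libraries were rescaled for their shifted medians, the fold change of Sdhd was between 0.01 and 0.04.

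Complex III takes electrons from coenzyme Q. Its 9 genes summed to 440 FPKM in wild-type replicate 1, 331 and 350 FPKM in the other wild types and 428, 330 and 370 FPKM in the knockouts, and the 9 fold changes had a median of -0.02. Uqcrq, the most abundant, stood at 106, 79.9 and 81.7 FPKM in the wild types and 107, 78.2 and 93.5 FPKM in the knockouts. Uqcrh, a hinge protein next to cytochrome c1, averaged 49.1 ± 16.3 against 47.7 ± 12.4 FPKM. The core proteins Uqcrc1 and Uqcrc2 averaged 37.6 ± 4.16 against 35.5 ± 3.14 FPKM and 34.2 ± 2.72 against 32.9 ± 1.58 FPKM. Cyc1, which is cytochrome c1, averaged 40.1 ± 3.84 against 38.5 ± 4.95 FPKM, and the Rieske protein Uqcrfs1 30.7 ± 3.81 against 27.3 ± 1.29 FPKM. Uqcr11, a small subunit, had the highest fold change of the complex (0.28, SE 0.28), at 38.2, 27.0 and 35.2 FPKM against 46.7, 30.7 and 45.6 FPKM. In both genotypes 1 library lay well under the others, so the groups overlapped.

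Cycs, the somatic cytochrome c that carries electrons between complexes III and IV, stood at 16.5, 10.5 and 9.36 FPKM in the wild types and 9.71, 11.0 and 8.96 FPKM in the knockouts. Only wild-type replicate 1 stood apart. The fold change of -0.23 (SE 0.26, limma adjusted p = 0.769) went to -0.0050 without that library.

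Complex IV, cytochrome c oxidase, reduces oxygen, and its nuclear subunits surround a mitochondrially encoded core. Its 16 genes summed to 907, 766 and 758 FPKM in the wild types and 905, 728 and 755 FPKM in the knockouts (811 ± 83.6 against 796 ± 95.5). Cox4i1, the highest of all members, stood at 273, 232 and 242 FPKM in the wild types and 282, 221 and 202 FPKM in the knockouts. Cox6a1 averaged 149 ± 16.5 against 154 ± 15.1 FPKM, and Cox8a 148 ± 6.23 against 151 ± 16.4 FPKM. Cox5a and Cox5b, subunits on the matrix side, averaged 39.0 ± 7.16 against 41.8 ± 6.24 FPKM and 24.0 ± 2.29 against 24.1 ± 1.62 FPKM. The median log2 fold change of the 11 tested genes was 0.02.

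Among these, Cox7c and Cox7a2l lay outside the narrow range of the others. Cox7c, a small subunit (chromosome 13, 86044816 to 86046904, minus strand), stood at 7.46, 8.07 and 7.98 FPKM in the wild types and 6.60, 4.81 and 5.12 FPKM in the knockouts. All knockouts lay below all wild types, with means of 7.84 ± 0.328 and 5.51 ± 0.959 FPKM. Its log2 fold change of -0.45 (SE 0.22, 95% interval -0.94 to 0.04) was the lowest of the members, with a limma adjusted p of 0.768. Non-overlapping lower groups were found for Cox7c and Sdhd, 2 of 82 members, against 3.83% of all genes. Cox7c has a near-identical copy, Gm10012, and its reads may be shared with it. Cox7a2l (chromosome 17, 83501918 to 83517330, minus strand) stood at 59.2, 45.0 and 40.0 FPKM in the wild types and 52.7, 40.9 and 20.8 FPKM in the knockouts. Its fold change of -0.40 (SE 0.35) rests on knockout replicate 3 and was -0.03 without it.

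**Figure D2:**
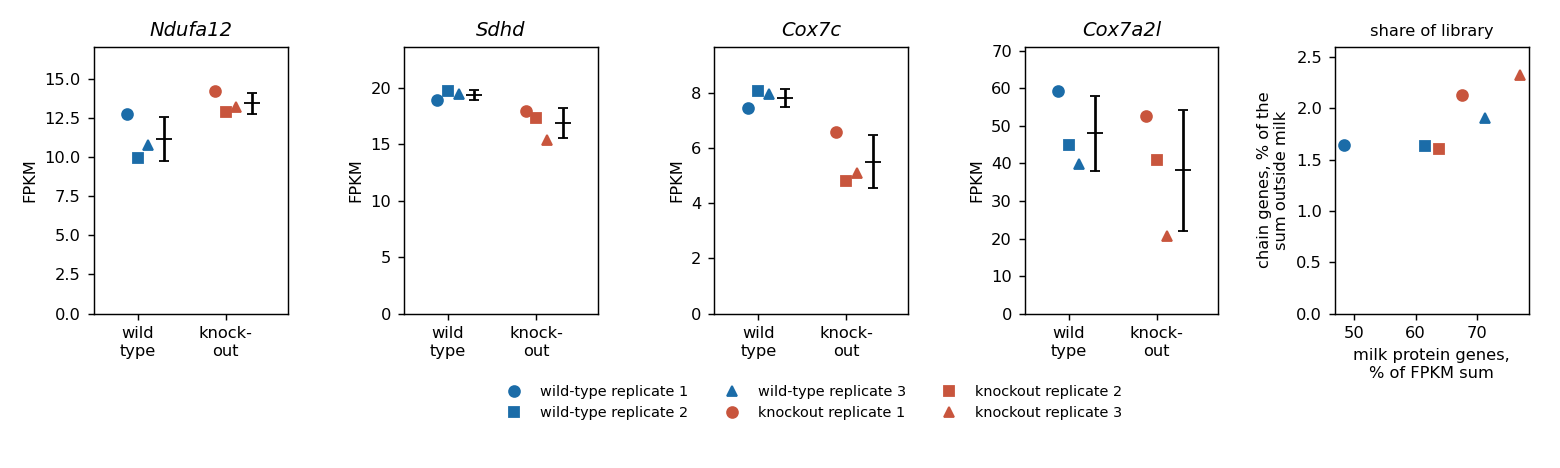
FPKM of Ndufa12, Sdhd, Cox7c and Cox7a2l in each mouse (first 4 panels, axes from 0; black bars are mean and SD of 3 mice), and the share of the chain genes in the FPKM sum outside milk protein genes against the milk share (last panel). The knockouts lie above the wild types for Ndufa12 and below them for Sdhd and Cox7c, while the Cox7a2l groups overlap.

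With fewer mice in a group, non-overlap is easier to reach, so counts with a mouse left out are read beside the share of all genes. The count of genes whose groups do not overlap changed when single mice were left out. It went from 3 members to 7 without wild-type replicate 3, to 14 without knockout replicate 1, to 21 without knockout replicate 2 and to 5 without knockout replicate 3. Without wild-type replicate 3, 1 member lay higher (1.69% of all genes) and 6 lower (26.6% of all genes). Without knockout replicate 3, 2 members lay higher (1.81% of all genes) and 3 lower (4.98% of all genes). Without knockout replicate 2, 18 members lay higher in the knockout (4.03% of all genes) and 3 lower (28.2% of all genes). Without knockout replicate 1, 1 member lay higher (2.16% of all genes) and 13 lower (9.65% of all genes). The direction in which most of these members lay thus turned with the knockout mouse left out.

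The ATP synthase joins a catalytic head to a membrane ring. Its 17 genes summed to 835, 696 and 682 FPKM in the wild types and 796, 654 and 697 FPKM in the knockouts (737 ± 84.7 against 715 ± 72.7). Atp5b, the catalytic beta subunit, stood at 235, 190.2 and 188 FPKM in the wild types and 189.9, 183 and 179 FPKM in the knockouts. Wild-type replicate 1 was the highest, and the fold change was -0.14 (SE 0.28). Atp5a1, the alpha subunit, averaged 122 ± 6.75 against 124 ± 6.74 FPKM and Atp5d, the delta subunit of the stalk, 122 ± 14.3 against 118 ± 22.1 FPKM. Atp5c1, the rotating gamma subunit, averaged 28.6 ± 1.88 against 27.2 ± 2.99 FPKM. Atp5o, which holds the head to the outer stalk, was steady in the wild types at 26.9, 25.4 and 28.7 FPKM and split in the knockouts at 34.6, 20.6 and 34.5 FPKM. Atp5l, at 6.24 ± 0.680 against 5.62 ± 1.53 FPKM, has 9 near-identical copies in the annotation. Across the 15 tested genes the median log2 fold change was -0.02 and the range -0.15 to 0.13.

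**Figure D3:**
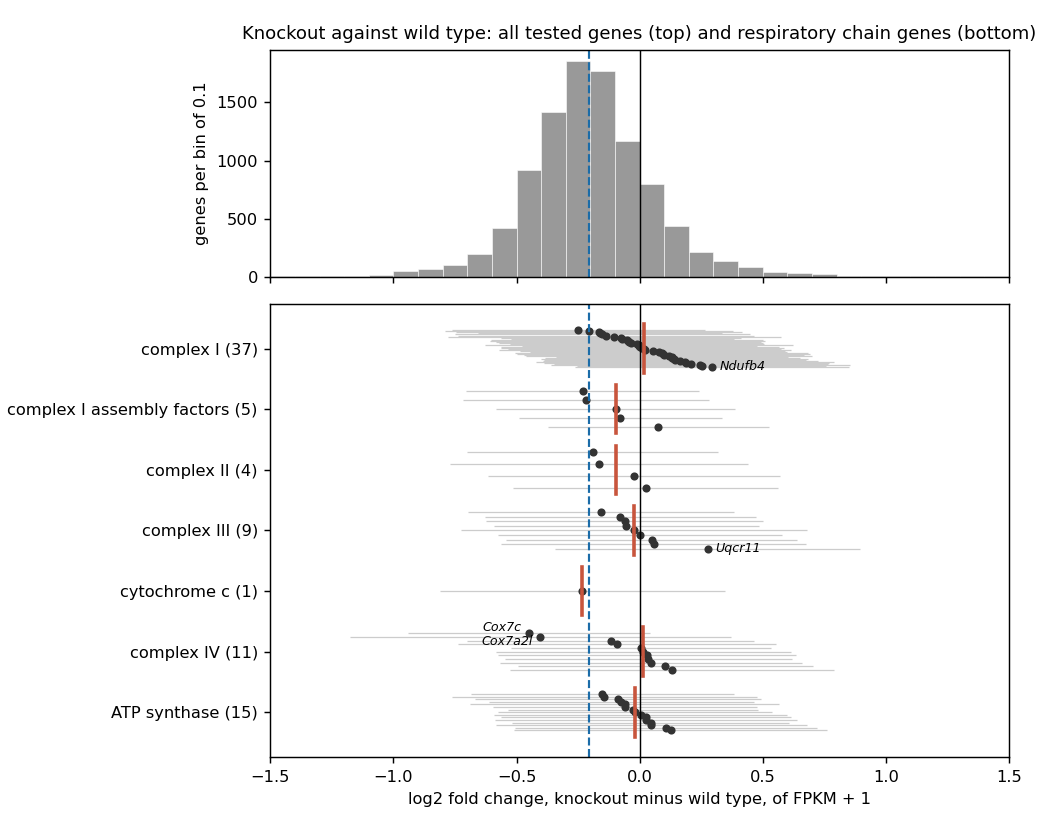
Log2 fold changes (knockout minus wild type, of FPKM + 1). Top: number of all 9767 tested genes per bin of 0.1. Bottom: each tested chain gene with its 95% interval (grey), by complex with the number tested in brackets, and the median of each complex (red). The dashed line is the median of all tested genes, -0.21, and 76 of the 82 chain genes lie to its right.

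Against all other genes, the chain genes differed in where and how tightly they sat. The median log2 fold change of all 9767 tested genes was -0.21, and that of the 82 members was -0.00018. Of the members, 41 of 82 lay above 0, against 18.3% of all tested genes, and 76 of 82 lay above the median of all genes. This held for 36 of 37 tested complex I genes, 9 of 9 complex III genes, 15 of 15 ATP synthase genes, 4 of 4 complex II genes and 9 of 11 complex IV genes, for 3 of 5 complex I assembly factors, but not for Cycs. The fold change was within 0.1 of 0 in 47 of 82 members (57.3%), against 20.2% of all tested genes. Within a genotype the members varied by a median SD of 0.21 on the log2 scale, against 0.33 for the other genes with a mean of at least 5 FPKM.

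Milk transcripts take a different share of each library, and FPKM is scaled to the library total, milk transcripts included. The members held 0.848%, 0.630% and 0.551% of the FPKM sum in the wild types and 0.692%, 0.579% and 0.536% in the knockouts. Of the sum outside milk protein genes, they held 1.64%, 1.64% and 1.91% in the wild types and 2.13%, 1.60% and 2.32% in the knockouts. The groups overlap on both scales, and knockout replicate 2 is the lowest on the second. Rescaling to the sum outside milk protein genes moved the ratio of the summed level from 0.993 to 1.17. It moved the members' median fold change to 0.21 and that of all genes to -0.03, and then 76 of 82 members lay above 0, against 43.5% of all genes. With the libraries scaled by a trimmed mean or by quantiles the members' median was 0.21 and 0.20. No member passed an adjusted p of 0.05 on any of these scales. On these 3 scales 77 of 82 members lay above the median of all genes. Fewer did so where the milk share entered the fit as a covariate (58 of 82) and without both end libraries (59 of 82). Whether the milk share plays a part in this difference was not tested.

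**Figure D4:**
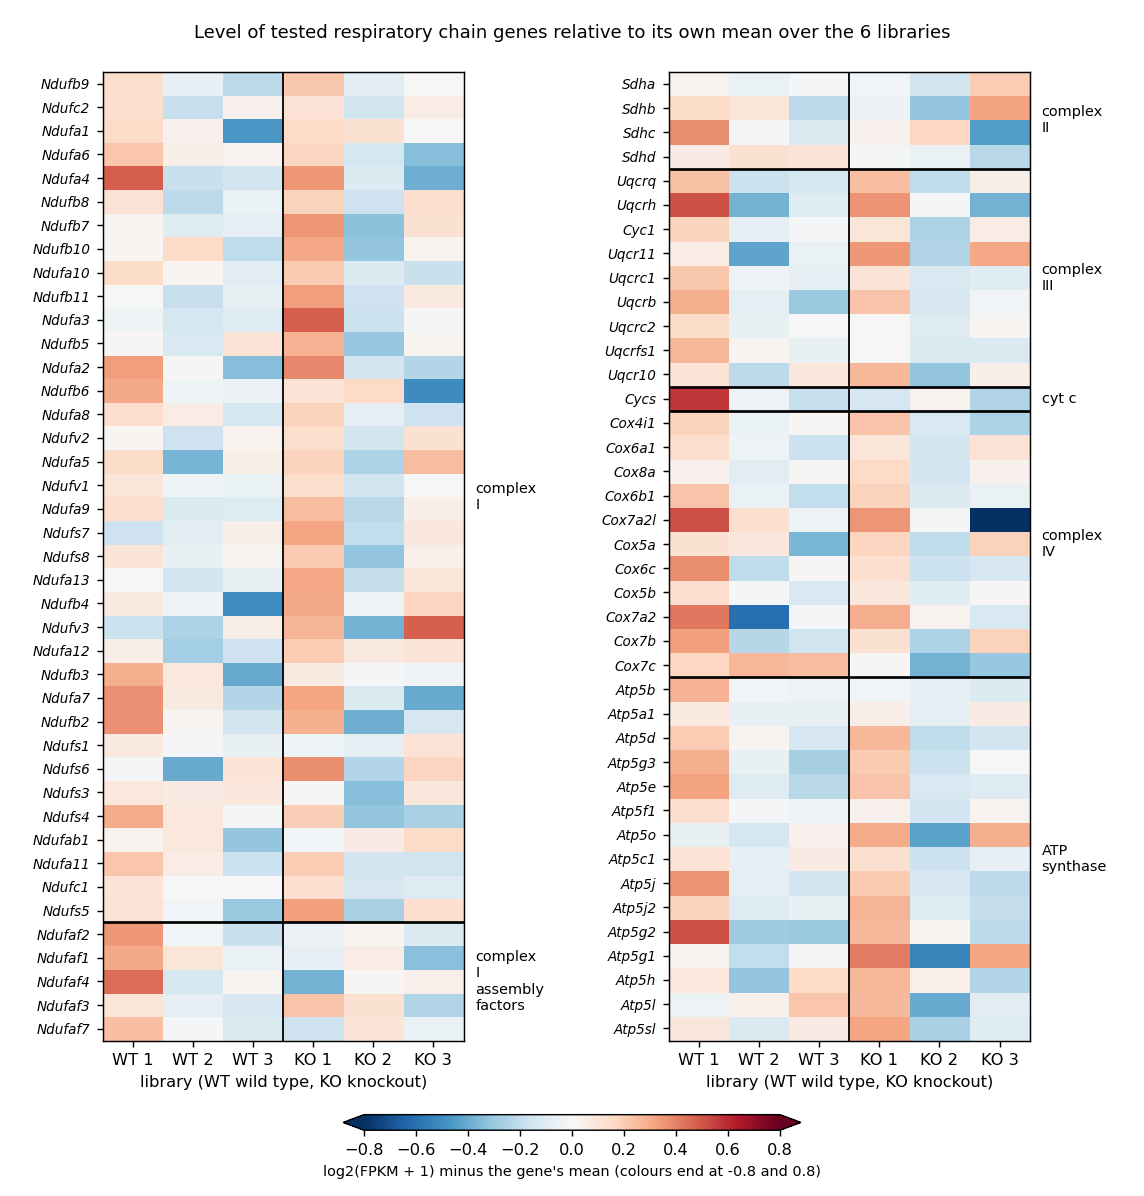
Log2(FPKM + 1) of 81 tested chain genes, each minus its own mean over the 6 libraries (colour), with genes in rows by complex and libraries in columns. Red columns for wild-type replicate 1 and knockout replicate 1 and a blue column for knockout replicate 2 run through most complexes, and they do not follow the genotype.

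Many chain genes shared an order of the mice that does not follow the genotype. The highest of the 6 libraries was wild-type replicate 1 for 36 of 82 members and knockout replicate 1 for another 36. Over all tested genes, wild-type replicate 1 was highest for 63.5% but knockout replicate 1 for 6.58%. The lowest library was knockout replicate 2 for 33 of 82 members, and knockout replicate 3, the lowest for 65.8% of all tested genes, was lowest for 19. Between those knockouts, replicate 1 lay above replicate 2 in 74 of 82 members (90.2%) and in 31.9% of all tested genes.

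In knockout replicate 1 the members' median deviation from their own means was 0.20 on the log2 scale, while that of all tested genes was -0.06. By complex it was 0.21 for complex I, 0.23 for complex III, 0.16 for complex IV and 0.26 for the ATP synthase, but -0.02 for complex II, -0.07 for the complex I assembly factors and -0.14 for Cycs. In wild-type replicate 1, by contrast, Cycs (0.57) and the assembly factors (0.30) stood highest among these parts of the chain. The median of all tested genes in that library was 0.33, above that of the assembly factors, and the median of all tested members was 0.14. The deviation in knockout replicate 1 also differed by transcript length. It was 0.23 for the 27 members with coding transcripts of up to 600 bases and -0.02 for the 7 members above 1500 bases. Other genes in those length classes stood at -0.02 and -0.08. The part of transcript length in the difference between complexes was not tested.

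Several subunits exist in alternative forms that are known for muscle, lung or other tissues, and the organoids used the forms of most tissues. Cox4i1 made up 99.7% to 99.9% of the Cox4 pair. Cox4i2, the form known from lung and induced by low oxygen, stood at 0.422, 0.324 and 0.141 FPKM in the wild types and 0.656, 0.748 and 0.531 FPKM in the knockouts. All knockouts lay above the wild types, as they did for 1.46% of all 17739 genes with no filter on low values. Cox4i2 was under 1 FPKM throughout and was not tested in the main fit. With no filter on low values its log2 fold change was 0.35 (SE 0.10, limma adjusted p = 0.829). Cox6a2 and Cox8b, known from heart, skeletal muscle and, for Cox8b, brown fat, were listed at 0 in 5 of 6 libraries and at 0.0516 and 0.187 FPKM in knockout replicate 2. Markers of skeletal muscle (11 genes, led by Mb at 1.41 against 1.38 FPKM) summed to between 0.919 and 3.10 FPKM. Cox6b2, known from testis, held at most 0.691% of its pair with Cox6b1.

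Among the Cox7a forms, Cox7a1, the muscle form, averaged 0.373 ± 0.164 against 0.610 ± 0.220 FPKM, and Cox7a2 19.0 ± 6.84 against 20.1 ± 3.08 FPKM. The mean of Cox7a2 over all libraries was 39.8 times that of Cox7a1. Cox7a2l shares the name but is the factor that joins complexes III and IV. It held 67.3% to 77.9% of the FPKM of the 3 together in 5 libraries and 53.2% in knockout replicate 3. Ndufa4 held 96.8% to 98.7% of its pair with Ndufa4l2, a form induced by low oxygen. The ring subunit of the ATP synthase is made from 3 genes that encode the same mature protein, and all were in use: Atp5g3 held 68.5% to 73.4%, Atp5g2 12.4% to 17.5% and Atp5g1 11.3% to 18.2%. Atp5g1 and Atp5g2 have near-identical copies. Atp5k, a small membrane subunit, was listed at 1.31, 0.135 and 0.117 FPKM in the wild types and 0.377, 0.116 and 0.841 FPKM in the knockouts, far from the other subunits of an enzyme it belongs to, and with the widest range of all members that have no 0 (11.3 times). Atp5s stayed under 1 FPKM.

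**Figure D5:**
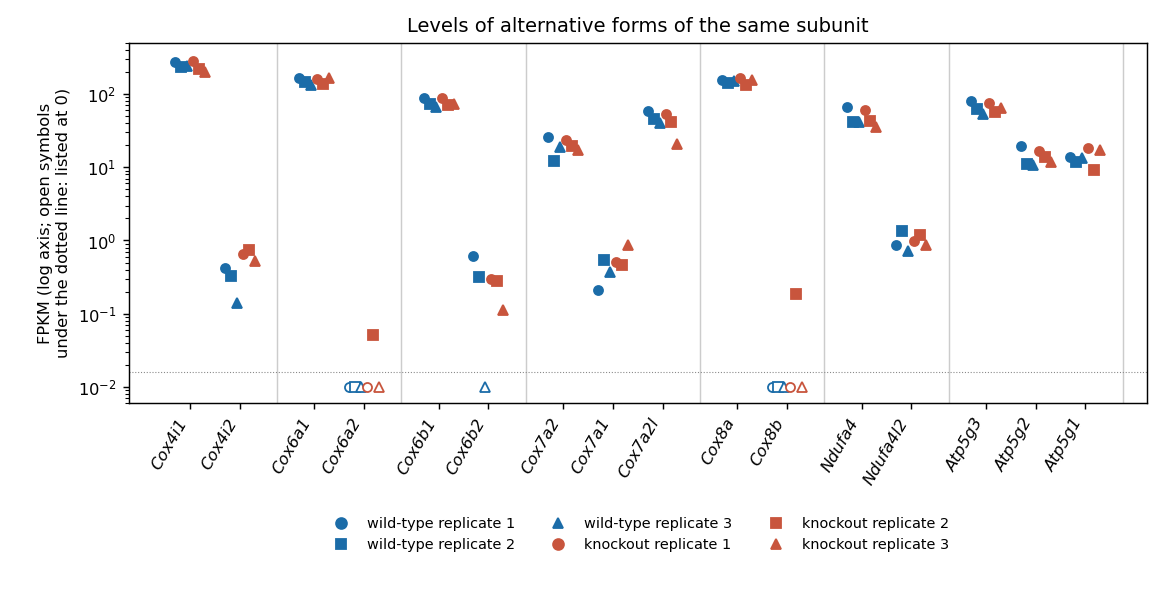
FPKM (log axis) of alternative forms of the same subunit in each library, with blue symbols for wild type and red for knockout. Open symbols under the dotted line are entries listed at 0. Except in the Cox7a set, the left gene of each set is the form with most of the signal. Cox7a2l, shown beside Cox7a2 and Cox7a1, is a factor that joins complexes III and IV and lies above Cox7a2.

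Further genes that serve the chain, with symbols outside the rule, were read from lists, and none of them passed the adjusted threshold. Of the 6 tested assembly factors of complex I outside the Ndufaf family, 4 had a fold change above 0 (median 0.06), led in level by Acad9 (6.25 against 6.78 FPKM). The 17 tested assembly factors of complex IV had a median of -0.20 with 2 above 0; Coa3 had the highest level (17.4 against 14.9 FPKM). For complex III it was -0.14 over 5 genes (Uqcc3, 10.1 against 7.56 FPKM) and for complex II -0.14 over 2 genes (Sdhaf1, 4.27 against 4.33 FPKM). For the ATP synthase list, which holds assembly factors, the inhibitor and other genes of the enzyme, it was -0.09 over 5 genes. The most abundant of these was 2010107E04Rik (26.6 against 27.5 FPKM, fold change 0.07), and Atpif1, the inhibitor, averaged 29.4 ± 9.19 against 22.6 ± 7.81 FPKM. The 10 tested genes of coenzyme Q synthesis had a median of -0.13 (Coq10b highest, 32.4 against 35.1 FPKM).

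The 10 tested transcriptional regulators of mitochondrial genes, among them Nrf1, Gabpa, Tfam and Esrra, had a median of -0.27 with 1 above 0. Yy1, the most abundant, stood at 25.7, 17.4 and 16.7 FPKM in the wild types and 15.5, 16.7 and 10.04 FPKM in the knockouts. Its groups did not overlap, by the margin of 1 wild-type and 1 knockout library that differ by less than 0.1 FPKM, and its log2 fold change was -0.48 (SE 0.28, limma adjusted p = 0.768). Tfb2m (5.39 against 3.91 FPKM) also had non-overlapping lower groups, so 2 of the 10 regulators had them, against 3.83% of all tested genes. They were also found for 2 of 10 tested coenzyme Q genes and 1 of 17 tested complex IV assembly factors. No tested gene of these lists had non-overlapping higher groups. Ppargc1a, which drives mitochondrial biogenesis in other tissues, averaged 0.241 ± 0.132 against 0.237 ± 0.0859 FPKM. The 14 genes of the citrate cycle had a median of -0.15 with 3 above 0 and 11 above the median of all genes; citrate synthase, Cs, averaged 69.1 ± 8.09 against 66.6 ± 7.92 FPKM. On this scale the lists for the regulators and for complex IV assembly thus lay near the median of all genes and the subunits above it; that difference was not tested.

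Markers of other cells were read from gene lists. Endothelial markers summed to between 42.7 and 91.7 FPKM and fibroblast markers to between 22.7 and 59.1 FPKM, and both overlapped between the genotypes; their most abundant genes were Cdh5 (29.9 against 26.9 FPKM) and Col3a1 (15.0 against 17.4 FPKM). The 6 macrophage and leukocyte markers summed to 7.25, 7.26 and 7.44 FPKM in the wild types and 5.41, 6.79 and 4.85 FPKM in the knockouts, so these groups did not overlap. Most of that was Cd68, a macrophage lysosomal protein, at 6.92, 6.84 and 6.94 FPKM in the wild types and 5.03, 5.64 and 3.35 FPKM in the knockouts (-0.50, SE 0.24, limma adjusted p = 0.768). Cd68, the 1 tested gene of that list, had non-overlapping lower groups, as had 3.83% of all tested genes. The adipocyte list summed to between 165 and 683 FPKM, nearly all of it Fabp4, and the brown adipocyte list to between 92.7 and 286 FPKM, nearly all of it Cidea. Lipe stood between 7.99 and 23.3 FPKM and Otop1 averaged 1.43 against 1.77 FPKM, while Adipoq, Plin1, Cfd and Ucp1 were at or under 0.1 FPKM in every library. Basal markers, led by Acta2 (354 against 344 FPKM), summed to between 293 and 1063 FPKM, and Trp63 was the single list gene with an unadjusted p under 0.05 (5.15 ± 3.53 against 2.29 ± 0.501 FPKM, limma adjusted p = 0.768). The part of cell composition in the members' levels was not tested.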

How the data were processed

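The deposited values are FPKM for 17739 gene symbols in 6 libraries, made by the authors; TopHat, Cufflinks, SAMtools and FastQC and the builds GRCm38 and mm10 are named in the submitters' processing notes, while versions, strand setting and annotation are not. Genotypes come from the genotype label, and titles tie table rows to samples. Genes with at least 1 FPKM in at least 3 libraries (9767) were compared as log2(FPKM + 1), which understates fold changes of low genes, with limma 3.58.1 in R 4.3.3 (empirical Bayes with trend, two-sided, Benjamini-Hochberg over all genes, threshold 0.05). The fit was tested on simulated data. Labels give mice, not litters or days, so p-values measure the spread between these mice. The members and the 18 gene lists were chosen with earlier results of these data known, and the motifs after fold changes were seen. Named genes are core subunits, isoform sets, the 2 most abundant and the 2 with highest and lowest fold changes per complex, genes whose groups do not overlap, members under 1 FPKM, and from each list its most abundant gene and any with unadjusted p under 0.05; Gapdh, Nmi and a few list genes were added. 1 member is not reported singly here. Coordinates are from GENCODE vM21 (GRCm38). Near-identical copies (BLAST 2.17.0, at least 95% identity over at least 50% of a coding transcript) exist for 16 members, and 26 members overlap another coding gene, so their reads may be shared. Alternatives covered the pseudocount, filters, rescaling, a milk covariate, library weights and libraries left out.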

Additional observations from a re-analysis of the deposited data

How the results depend on the processing

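No paired analysis was possible because the labels number the mice individually and tie no wild type to a knockout. No member passed an adjusted p of 0.05 under any alternative run. The count of members with an unadjusted p under 0.05, 0 as reported, was 2 with no filter on low values (Cox7c, lower, and Cox4i2, higher; 1.84% of all genes), 2 after trimmed-mean rescaling (1.72% of all genes), 3 after quantile normalization (1.81%), 3 after rescaling to the sum outside milk proteins (1.78%), 1 with the milk share as a covariate (1.18%) and 11 with library quality weights (10 higher, against 1.73% of all genes, and 1 lower, against 9.96%); leaving out 1 library in turn left it at 0. With quality weights the fold change of Nmi was -1.59 with a limma adjusted p of 0.00067. These weights were estimated gene by gene, a choice made after seeing the data because the default method did not converge. They were uneven: wild-type replicate 2 had a weight of 5.50 and the other libraries had weights from 0.307 to 2.67, so this run leans on 1 mouse. Ndufa12 and Ndufb4 were past the unadjusted threshold under all 3 rescalings. The count of members whose groups do not overlap, 3 as reported, was 5 under each rescaling (4 higher, against 2.15% to 2.58% of all genes, and 1 lower, against 3.98% to 4.31%), 12 without both end libraries (9 higher, against 8.96%, and 3 lower, against 6.25%) and 1 without members that have near-identical copies (an alternative added after seeing the data), and ran from 3 to 21 when 1 library was left out. With no filter on low values that count was 4 (2 higher, against 1.46% of all genes, and 2 lower, against 3.61%). The members' median, -0.00018 as reported, was 0.21 after trimmed-mean rescaling, 0.20 after quantile normalization, 0.21 after rescaling to the sum outside milk proteins and between -0.08 and 0.06 with 1 library left out. With quality weights that median was 0.15, and 68 of 82 members lay above 0, against 23.8% of all genes. The ratio of summed levels was 1.17 after rescaling outside milk proteins and between 0.928 and 1.06 with 1 library left out. Of the members, between 67 and 79 lay above the median of all genes with 1 library left out. Sdhd changed sign under the 3 rescalings (0.014 trimmed mean, 0.035 quantile and 0.016 outside milk proteins). The cause of these shifts was not tested. Depth is unknown, so the spread between 3 mice a group sets the limit.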

Other observations

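Some values chosen after they were seen stand outside the comparisons above. Ndufv3, a small complex I subunit, stood at 10.7, 10.1 and 12.6 FPKM in the wild types and 14.9, 9.13 and 17.3 FPKM in the knockouts, so knockout replicate 2 was the lowest and the other knockouts the highest of the 6 mice. The same order was seen for Atp5g1, at 13.7, 11.7 and 13.4 FPKM in the wild types and 18.3, 9.05 and 17.1 FPKM in the knockouts, and for Ndufs7, at 13.7, 14.4 and 16.0 FPKM and 19.5, 13.3 and 16.5 FPKM. Cox7a2 was low in wild-type replicate 2 alone, at 25.9, 12.2 and 18.8 FPKM in the wild types and 23.5, 19.4 and 17.5 FPKM in the knockouts. Ndufs1 differed little between any of the mice, from 7.03 to 8.17 FPKM.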
